A study of Saccharomyces cerevisiae with 8 samples.

Results

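Of 465739 nucleosome calls in the nuclear regions kept here, 36617 (7.86%) were wider than the length of DNA wrapped around a single nucleosome. All remaining calls had exactly that length, which is printed with the processing, and are called single-width calls here. The wide calls were chosen by width alone in any of 8 libraries, so their width is the rule and not a finding. The rule did not use the treatment, so what changed with treatment could be tested. Each library was called separately, and the libraries held 4066 to 5020 wide calls of 57316 to 59194 calls kept. The calls came from micrococcal nuclease sequencing (MNase-seq) of the budding yeast Saccharomyces cerevisiae, in which linker DNA is digested and the protected fragments are sequenced.

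The 4 phenanthroline libraries came from cells given 1,10-phenanthroline at 100 µg/ml for 30 min at 30 °C, and the 4 untreated libraries from cells without it. Both groups used the same 4 strain labels, 1 library of each per treatment, so the labelled strain served as the replicate. All strains were MATa his3Δ0 leu2Δ0 met15Δ0 ura3Δ0 bar1::leu2 (PPY1 in the labels), were grown in YPD and held in G1, and carried an insert of 81 bp in a pair of genes that differed between strains. Each treatment thus had a strain once, and separate cultures are not named in the labels, so a p-value here is set by how libraries of unlike strains vary. The labels give about 10 M read pairs of 75 bp for every sample, and the depth of a single library is unknown from calls.

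The labels were checked first. URA3 and MET17 (MET15 in the genotype) held 0 calls in all libraries, HIS3 2 to 3 and LEU2 8 to 11. BAR1 held 11 to 13 calls, and a marker placed in a gene need not remove its sequence. Of 64 pairs of a library and an insertion site, 16 held a coordinate step of 79 to 83 bp, and 0 of these 16 were in the library of the strain named for that gene. In both treatments the steps of label 1 libraries were at the genes named for strain 4, UBX5 and BSP1. Those of label 2 were at the genes of strain 1, of label 3 at those of strain 2 and of label 4 at those of strain 3. Libraries of the same label thus had steps at the same sites in both treatments. Since labels and named genes did not match, libraries are called by their label ("labelled strain 1"). Positions beyond 392462 on chromosome IV, 736615 on VII, 223581 on VIII, 405248 on XV and 883578 on XVI were left out, which removes the shifted coordinates, and the treatment comparison does not use which genes a strain carries.

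In yeast genes nucleosomes form an array that starts beside a depleted promoter. The first nucleosome of the gene has nearly the same position in every cell, and positions vary more between cells farther into the gene. A nucleosome caller that meets overlapping positions at 1 place can report them as a single broad call. 1,10-phenanthroline chelates metal ions and is used in yeast to stop transcription, and passage of RNA polymerase is among the processes that move nucleosomes.

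The widths of wide calls fell into bands. The narrowest wide call spanned 155 bp and the widest 483 bp. On the other side of the threshold every call had the single width, with 0 calls narrower and 0 calls of 148 to 154 bp, and 12 wide calls were at most 160 bp. Of the 36617 wide calls, 33954 spanned 148 to 214 bp. There were 10387 calls of 210 to 214 bp against 1 call of 215 to 219 bp, so a band ended sharply at 214 bp. The same edge was visible in the calls that were not joined: neighbouring calls overlapped by at most 79 bp, which puts their centres (dyads) at least 68 bp apart. A wide call of up to 214 bp is as long as a pair of single-width calls with dyads at most 67 bp apart, so the class is a cut along a range of dyad distances. The median wide call was 207 bp in each phenanthroline library and 206 or 207 bp in the untreated libraries (exact two-sided permutation p = 0.429, adjusted p = 0.49 over 8 library measures).

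**Figure D1:**
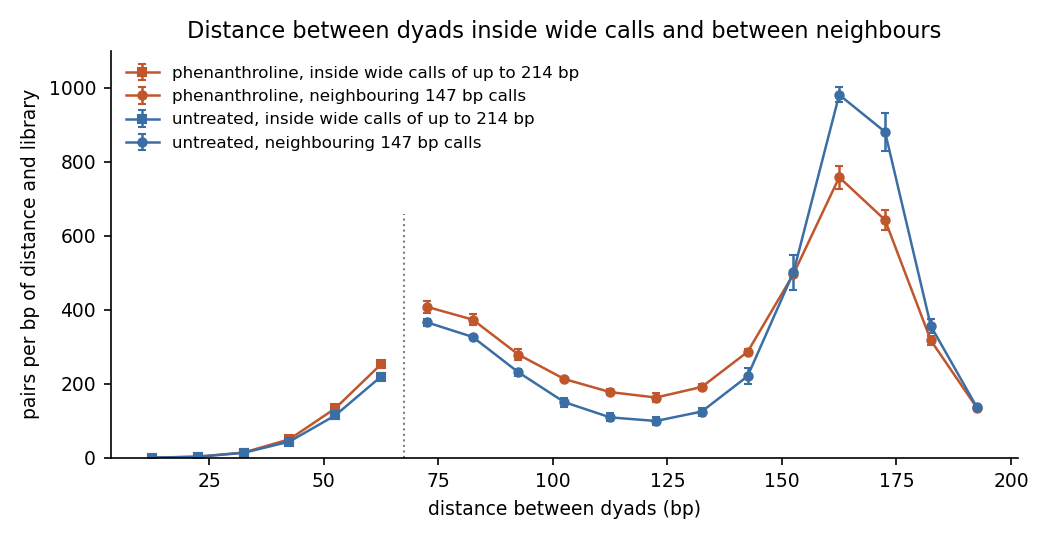
Pairs of dyads per bp of distance and library, for the outermost dyads implied by wide calls of up to 214 bp (squares) and for neighbouring single-width calls (circles). Points are means over 4 libraries and bars are SD. The dotted line marks the end of the joined band, and the phenanthroline curve lies above the untreated curve on both sides of it and its mean is below the untreated mean from 148 to 197 bp, without overlap of libraries from 158 to 187 bp.

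The calls joined in a wide call are not listed, so the distance of its outermost dyads was taken as its width minus the single width. Wide calls with an implied distance of 58 to 67 bp numbered 2528 ± 35.1 in phenanthroline libraries. In untreated libraries they numbered 2194.5 ± 90.7 (SD, n = 4 each), a ratio of 1.15. Just beyond the edge, separate pairs of single-width calls with dyads 68 to 77 bp apart had a ratio of 1.11. Neither pair of groups overlapped. The excess with phenanthroline was therefore about as large on either side of the width threshold. It was larger among separate pairs farther apart, with a ratio of 1.64 at 118 to 127 bp. Pairs at the usual spacing were fewer, with ratios of 0.773 at 158 to 167 bp, 0.73 at 168 to 177 bp and 0.891 at 178 to 187 bp, and the groups did not overlap.

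Wide calls had low scores. The authors' score runs from 0 to 1 and averages a pair of components: a width score that is low where fragments are spread out, and a height score that grows with coverage. It is relative within a library. Wide calls averaged 0.485 ± 0.00274 in phenanthroline libraries and 0.474 ± 0.00298 in untreated libraries, and single-width calls averaged 0.659 ± 0.0033 in phenanthroline libraries and 0.675 ± 0.0057 in untreated libraries (SD, n = 4 each). Within libraries the score of wide minus single-width calls was -0.188, with that sign in 8 of 8 libraries (exact two-sided sign-flip p = 0.00781, adjusted p = 0.00955 over 11 comparisons). This and the later sign-flip tests took the 8 libraries as units, although both treatments shared the same 4 strain labels. With 4 labels as units an exact sign-flip p cannot be below 0.125. Both components had the same sign, -0.213 for height and -0.162 for width. A choice by call width and a score that falls where fragments are spread are not independent. The sign was thus partly set by the choice of calls, and the test describes the class rather than supporting it.

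The authors class calls as well positioned (W), fuzzy (F) or uncertain. W held 18 of the 36617 wide calls, and 53.9% ± 2.14 of single-width calls in phenanthroline libraries and 59.6% ± 1.82 in untreated libraries (SD, n = 4 each). All wide calls of up to 214 bp were W or F, while 2586 of the 2663 calls above 214 bp (97.1%) were uncertain. The class follows the components of the score, since no W call had a low width or height score, so single-width calls of class F are themselves chosen for low scores. Set against these, wide calls differed by -0.00652, which is given as a description with no test.

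The surroundings of wide calls also differed within libraries. The mean score of the single-width neighbours of wide calls differed by -0.0902 from that of the neighbours of single-width calls (8 of 8 libraries, exact sign-flip p = 0.00781, adjusted p = 0.00955). They scored 0.012 above the neighbours of single-width class F calls, with the same count and p. The median gap to these neighbours was -30 to -26 bp for wide calls, so they overlapped the wide call. It was -38 to -30 bp for single-width class F calls and 8 to 16 bp for all single-width calls. A wide call was followed by another wide call in 13% to 13.7% of cases in phenanthroline libraries and 14.1% to 14.6% in untreated libraries, and a single-width call was followed by a wide call in 7.84% to 8.06% of cases in phenanthroline libraries and 6.52% to 7.10% in untreated libraries. Within 20000 bp of the outermost calls of a chromosome, toward the telomeres, the share of wide calls was 2.17 percentage points above that of the rest (8 of 8 libraries, with the same exact p). These comparisons were added after seeing the data.

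Wide calls were a larger share of calls after phenanthroline. They made up 8.52%, 8.44%, 8.36% and 8.33% of calls in the phenanthroline libraries labelled strain 1, 2, 3 and 4, against 7.09%, 7.65%, 7.30% and 7.16% in the untreated libraries of the same labels. Every phenanthroline library lay above every untreated library. The means were 8.41% ± 0.0867 in phenanthroline libraries and 7.30% ± 0.247 in untreated libraries (SD, n = 4 each), a difference of 1.11 points (exact two-sided permutation p = 0.0286, the smallest that 4 against 4 allows, adjusted p = 0.0381 over 8 library measures). In numbers, phenanthroline libraries held 5020, 4968, 4906 and 4928 wide calls and untreated libraries 4066, 4427, 4189 and 4113. The mean score of wide calls was 0.0104 higher with phenanthroline (exact permutation p = 0.0286, adjusted p = 0.0381). This held in gene bodies, at 0.486 ± 0.00389 in phenanthroline libraries and 0.466 ± 0.00231 in untreated libraries (SD, n = 4 each). In the other places wide calls scored lower with phenanthroline: 0.488 against 0.535 untreated in promoters, 0.442 against 0.473 untreated at gene ends and 0.488 against 0.514 untreated elsewhere. In none of the 4 places did the libraries overlap, and these splits were not tested. Of the components, height was 0.0272 higher with phenanthroline (exact permutation p = 0.0286, adjusted p = 0.0429 over 12 measures added after seeing the data), and width differed by -0.00643 (exact permutation p = 0.0571). Scores are relative within a library, so the score of wide minus single-width calls was also compared. It was -0.175 with phenanthroline and -0.200 without (exact permutation p = 0.0286, adjusted p = 0.0429 over the same 12). Single-width calls themselves scored 0.659 with phenanthroline and 0.675 without. Those of class F scored 0.491 with phenanthroline and 0.481 without, a difference of 0.00999 against 0.0104 for wide calls. The higher score was thus not particular to wide calls. Fuzziness of the other calls moved with the treatment: 46.1% ± 2.14 of single-width calls were class F in phenanthroline libraries, against 40.4% ± 1.82 in untreated libraries. Its part in the change of wide calls was not tested.

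With the strain label as a replicate block, 4 pairs cannot give an exact sign-flip p below 0.125, and each of these differences was at that value with 4 of 4 labels in the same direction. With calls of a score of at least 0.4 only, the difference in share was 1.36 points with the same exact permutation p and an adjusted p of 0.0571.

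The widest calls, longer than the width implied for a joined pair, rose more in proportion. Calls above 214 bp were 0.764%, 0.698%, 0.723% and 0.627% of calls in phenanthroline libraries labelled strain 1, 2, 3 and 4, against 0.403%, 0.392%, 0.533% and 0.423% in untreated libraries. The groups did not overlap, and the ratio of means was 1.61 (exact permutation p = 0.0286, adjusted p = 0.0429 over 12 measures added after seeing the data). Their part of all wide calls was 8.35% ± 0.617 with phenanthroline and 6.01% ± 0.926 without (SD, n = 4 each).

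The share of wide calls varied with place along the gene. A call was assigned by its centre to a gene body (inside a coding sequence), a promoter (up to 400 bp upstream of a coding start), a gene end (up to 200 bp downstream of a stop codon) or elsewhere. Gene bodies held 85% ± 0.652 of the wide calls in phenanthroline libraries and 81.4% ± 0.45 in untreated libraries (SD, n = 4 each), against 79.4% of all calls in phenanthroline libraries and 78.4% in untreated libraries. The share of wide calls was 3.65 points higher in gene bodies than in promoters (8 of 8 libraries, exact sign-flip p = 0.00781, adjusted p = 0.00955).

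**Figure D2:**
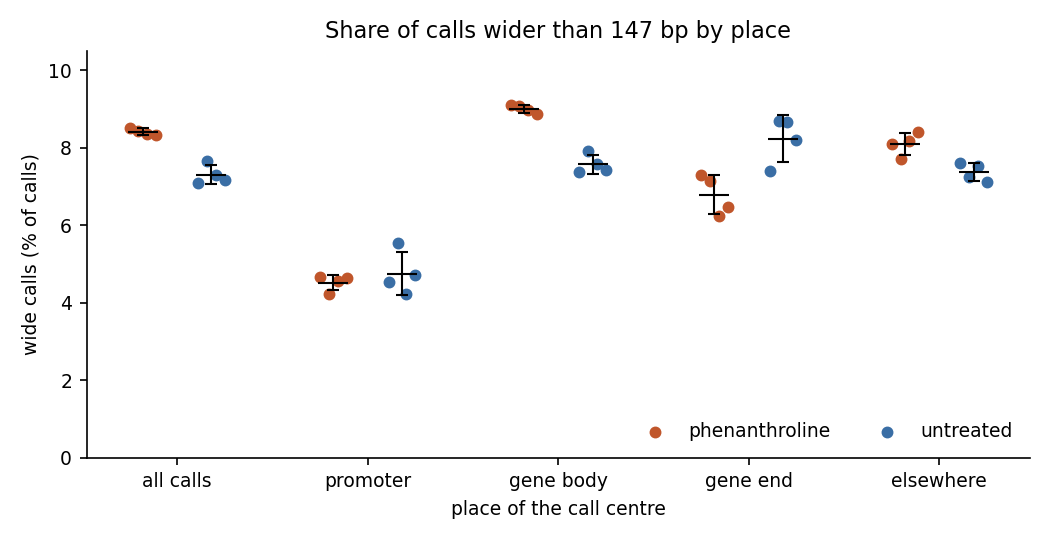
Percent of calls that were wide, for all calls and by the place of the call centre. Points are libraries, lines are means and bars are SD (n = 4). Phenanthroline libraries lie above untreated libraries in gene bodies, below them at gene ends, and among them in promoters.

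The change with phenanthroline differed by place. In gene bodies 9.11%, 9.07%, 8.96% and 8.88% of calls were wide in the phenanthroline libraries labelled strain 1, 2, 3 and 4, against 7.37%, 7.91%, 7.59% and 7.42% in the untreated libraries. The groups did not overlap, with a difference of 1.43 points (exact permutation p = 0.0286, adjusted p = 0.0381). At gene ends 7.30%, 7.14%, 6.24% and 6.48% were wide in phenanthroline libraries, against 7.39%, 8.69%, 8.66% and 8.19% in untreated libraries. Here the share was 1.44 points lower with phenanthroline (the same exact permutation p and adjusted p), although in the label 1 libraries the difference was -0.089 points. The gap between gene body and gene end was 2.21 ± 0.428 points in phenanthroline libraries and -0.659 ± 0.449 points in untreated libraries (SD, n = 4 each). This test of the difference itself gave 2.87 points (exact permutation p = 0.0286, adjusted p = 0.0429 over the 12 added measures).

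Promoters had the lowest share of wide calls, 4.52% ± 0.194 in phenanthroline libraries and 4.75% ± 0.557 in untreated libraries, and the groups overlapped (exact permutation p = 0.571, adjusted p = 0.571). Calls elsewhere were wide in 8.09% ± 0.288 with phenanthroline and 7.37% ± 0.228 without (SD, n = 4 each, exact permutation p = 0.0286, adjusted p = 0.0381). With narrower windows of 200 bp and 100 bp, neither gene ends (difference -0.971 points, exact permutation p = 0.114) nor elsewhere (0.0105 points, p = 0.971) passed.

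Intergenic regions were also divided by the genes that flank them. All nuclear chromosomes together hold 1515 convergent and 2826 tandem regions, and only their parts in the kept regions gave calls. In convergent regions, between a pair of gene ends, 7.89%, 8.24%, 7.24% and 7.34% of calls were wide in phenanthroline libraries. In untreated libraries 8.36%, 9.17%, 9.96% and 8.86% were. The groups did not overlap (difference -1.42 points, exact permutation p = 0.0286, adjusted p = 0.0429). In tandem regions, which join the end of 1 gene to the start of the next, the shares were 5.82% ± 0.341 with phenanthroline and 6.06% ± 0.568 without, with overlapping groups (SD, n = 4 each, exact permutation p = 0.6). Within 150 bp of 222 tRNA genes, which RNA polymerase III transcribes, 15 to 17 wide calls were found per phenanthroline library and 10 to 17 per untreated library (exact permutation p = 0.686 for the share).

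Wide calls became more frequent with distance into long genes. In the 1762 genes of at least 1500 bp, calls 1000 bp or more from the coding start were wide in 13.3%, 13.2%, 13.1% and 12.9% of cases in phenanthroline libraries, against 11.4%, 11.8%, 11.4% and 11.4% in untreated libraries. Calls within 500 bp of the coding start were wide in 3.73%, 3.30%, 3.49% and 3.82% of cases in phenanthroline libraries, against 2.36%, 2.49%, 2.72% and 2.19% in untreated libraries. The difference of deep from early calls was 9.31 points over the 8 libraries, with the same sign in 8 of 8 (exact sign-flip p = 0.00781, adjusted p = 0.00955). Both parts of the gene were higher with phenanthroline, early calls by 1.14 points and deep calls by 1.58 points (exact permutation p = 0.0286 and adjusted p = 0.0429 for each). As a ratio of means that was 1.47 for early and 1.14 for deep calls, while the difference of deep from early calls changed by 0.439 points (exact permutation p = 0.114).

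**Figure D3:**
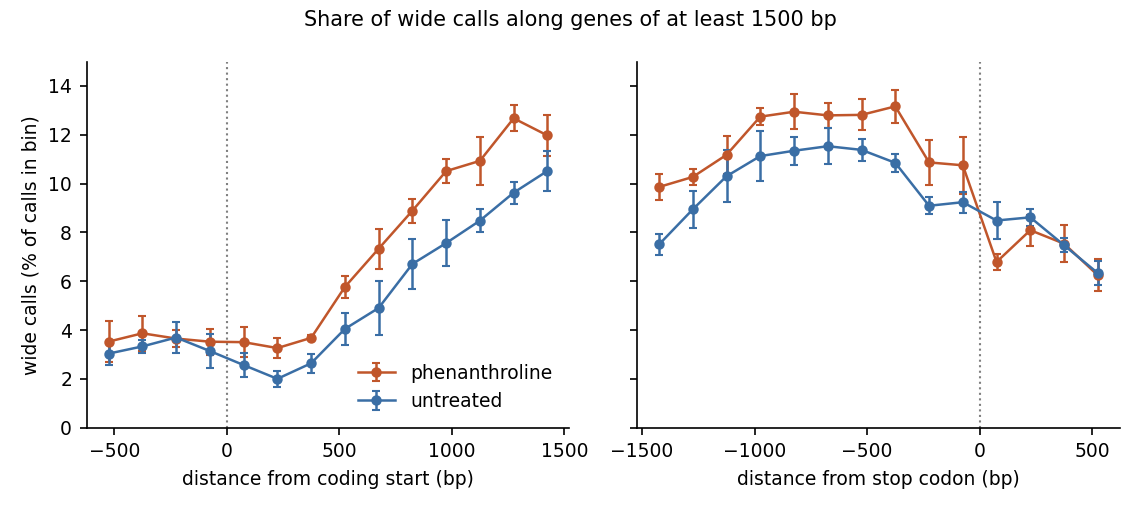
Percent of calls that were wide in bins of 150 bp from the coding start (left) and from the stop codon (right), for genes of at least 1500 bp. Points are means over 4 libraries and bars are SD. The share is lowest near the coding start, higher deep in the gene and lower again in the last 300 bp. Inside the gene the phenanthroline mean lies above the untreated mean in each bin, with overlapping libraries in some, and the order turns in the first 150 bp after the stop codon.

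Along these genes the share was lowest 150 to 300 bp after the coding start, 3.27% ± 0.408 in phenanthroline libraries and 2.01% ± 0.329 in untreated libraries, where the ratio of 1.63 was also the highest of the bins. From 1200 to 1350 bp it was 12.7% ± 0.527 with phenanthroline and 9.63% ± 0.443 without. Between 450 and 300 bp before the stop codon it was 13.2% ± 0.675 with phenanthroline and 10.9% ± 0.367 without. In the last 150 bp of the gene it was 10.8% ± 1.17 with phenanthroline and 9.24% ± 0.431 without. In the first 150 bp after the stop codon it was 6.79% ± 0.314 with phenanthroline and 8.49% ± 0.776 without (SD, n = 4 each). Upstream of the coding start the groups overlapped in each of the bins.

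Gene length went with the share. In 414 genes of 3000 bp or more 12.2% ± 0.285 of calls were wide in phenanthroline libraries and 10.7% ± 0.257 in untreated libraries. In 1288 genes under 750 bp the shares were 4.62% ± 0.172 with phenanthroline and 4.03% ± 0.217 without (SD, n = 4 each).

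A wide call in 1 library was most often not wide in another. For wide calls of 148 to 214 bp, the same place in a second library held a wide call in 30.1% of cases, 1 single-width call in 41.7%, a pair of single-width calls in 26.7% and no call in 0.261%, as means over 56 ordered pairs of libraries. The single calls that took their place scored 0.628 on average. In 20.5% of cases a wide call of the second library had its centre within 30 bp of that of the wide call. For single-width calls, a single-width call of the second library lay that close in 81.4% of cases, and in 64.1% for those of class F.

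**Figure D4:**
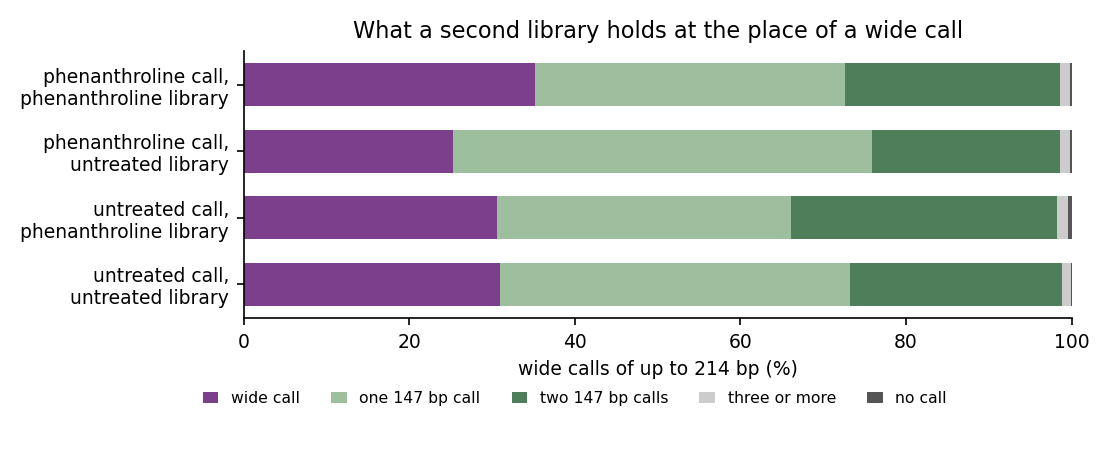
What a second library held at the place of a wide call of 148 to 214 bp, as mean percent over pairs of libraries, by the treatment of the library with the wide call (first line of each label) and of the second library (second line). Wide calls of phenanthroline libraries were wide again in 35.2% of cases in other phenanthroline libraries and in 25.3% in untreated libraries.

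Libraries of the same treatment shared more wide places. A wide call of a phenanthroline library was wide again in 35.2% of cases in the other phenanthroline libraries (pairs 33.5% to 39.5%), and a wide call of an untreated library was wide in phenanthroline libraries in 30.5% (27.4% to 33.2%). In untreated libraries, calls wide in phenanthroline were wide in 25.3% (23.5% to 27.8%) and calls wide in other untreated libraries in 30.9% (25.4% to 36.2%). Over all pairs the share was 33.0% within and 27.9% between treatments, a difference of 5.12 points (exact permutation p = 0.0286 over 70 splits). Where a wide place of a phenanthroline library was not wide in untreated libraries, it was more often 1 call (50.6%) than a pair (22.7%). Wide places of untreated libraries held 1 call (35.6%) about as often as a pair (32.1%) in phenanthroline libraries.

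Wide calls of the 8 libraries that shared at least 74 bp were joined into 14912 places. Of these, 6245 (41.9%) were wide in 1 library only and 96 (0.644%) in all 8. All 4 phenanthroline libraries were wide at 584 places (3.92%), and all 4 untreated libraries at 371 (2.49%). At 98 places, 0.657% of all places, 4 phenanthroline and 0 untreated libraries were wide, and at 29 places, 0.194%, the reverse held. Gene bodies held 76 of the 98 (77.6%) and 15 of the 29 (51.7%), against 12105 of all 14912 places (81.2%). Gene ends held 3 of the 98 (3.06%) and 6 of the 29 (20.7%), against 685 of all 14912 places (4.59%). No test was made of these counts, which were given by the treatment labels.

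Joining chains overlapping calls, so a place can be much wider than any call in it. The median place spanned 212 bp, and the 96 places wide in all 8 libraries had a median span of 573 bp. With any shared base sufficient, 360 places were wide in all 8 libraries, and with an overlap of 50% of both calls 24 were.

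The 8 places of largest mean width among those wide in all 8 libraries were broad stretches where the calls of the libraries lay beside each other. In REV3, the catalytic subunit of a translesion DNA polymerase, a place at 232996 to 233963 of chromosome XVI (sacCer3) held wide calls of 275, 459, 212 and 395 bp in phenanthroline libraries and 212, 209, 209 and 391 bp in untreated libraries. In HSL1, a kinase of the morphogenesis checkpoint, the widths at 251067 to 251934 of XI were 444, 366, 265 and 264 bp with phenanthroline and 276, 209, 248 and 208 bp without. The width thus varied between libraries of the same treatment by as much as between treatments. In TEL1, a kinase of telomere maintenance and DNA damage signalling, a place at 52766 to 53731 of II held calls of 195 to 336 bp with phenanthroline and 207 to 386 bp without. ATG2, which takes part in autophagy, had a place at 193119 to 193555 of XIV with calls of 207 to 436 bp with phenanthroline and 200 to 311 bp without. The places in REV3, HSL1, TEL1 and ATG2 lay 2013 to 6134 bp from the coding start of genes 4515 to 8364 bp long.

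The other 4 lay in or near genes of 228 to 1242 bp. HSP150, a secreted cell wall protein, was wide at 121005 to 121617 of X with calls of 195 to 272 bp in phenanthroline libraries and 199 to 462 bp in untreated libraries. TMA10 was covered by a place at 782880 to 783724 of XII that also reaches beyond the gene, with calls of 209 to 326 bp with phenanthroline and 210 to 329 bp without. A place at 3409 to 4385 of I, nearest to YAL067W-A and close to a chromosome end, held calls of 204 to 433 bp with phenanthroline and 202 to 383 bp without. Another at 147122 to 147699 of VIII, nearest to RPS27B, held calls of 198 to 310 bp with phenanthroline and 204 to 369 bp without.

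The 5 widest places with wide calls in 4 phenanthroline and 0 untreated libraries were inside genes. In YRO2 (chromosome II, 343435 to 343885) phenanthroline libraries held calls of 205, 205, 212 and 442 bp, and untreated libraries 2, 3, 2 and 3 single-width calls over the same bases. In CSF1, a gene of 8877 bp for a lipid transfer protein, the place 308022 to 308465 of XII held calls of 444, 211, 196 and 210 bp with phenanthroline and 4 to 5 single-width calls per library without. AKR2, a palmitoyltransferase, had calls of 205 to 376 bp with phenanthroline at 395488 to 396026 of XV and 3 to 4 single-width calls per library without. PRD1, a metallopeptidase, had calls of 196 to 450 bp at 25856 to 26325 of III, and YLR179C calls of 212 to 321 bp at 514042 to 514510 of XII. The 5 places were chosen for 0 wide calls in untreated libraries, so that only single-width calls lay there follows from the choice. Phenanthroline libraries held single-width calls there too. PRD1 had 2, 4, 4 and 3 with phenanthroline and 3, 4, 4 and 4 without. YLR179C had 1, 1, 1 and 2 with phenanthroline and 3, 3, 3 and 4 without.

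The 5 widest places of the reverse kind were 2 gene bodies, 2 gene ends and 1 promoter. The promoter was that of FBA1, the aldolase of glycolysis, where a place centred 125 bp upstream of the coding start (XI, 327412 to 327812) held calls of 273, 250, 201 and 197 bp in untreated libraries and only single-width calls, 1 to 3 per library, in phenanthroline libraries. Beyond the stop codon of FAA2, which activates fatty acids, untreated libraries had calls of 209, 209, 211 and 211 bp (V, 186665 to 187143). Beyond that of COM2, a zinc finger factor, they had calls of 214, 213, 209 and 263 bp (V, 420895 to 421172). In KIP2, a kinesin, they had calls of 200 to 271 bp (XVI, 258163 to 258441), and in ADE16, of purine synthesis, of 195 to 253 bp (XII, 199670 to 200209). Phenanthroline libraries held 2 to 5 single-width calls at each of these 4 places. Untreated libraries held single-width calls there too. ADE16 had 3, 3, 1 and 4 and FAA2 had 2, 0, 3 and 1. COM2 had 1, 1, 1 and 0 and KIP2 had 1, 1, 0 and 0. At FBA1 untreated libraries had 1, 1, 2 and 2. The places of these 3 kinds were chosen by their widths and are described without a test.

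Genes were then compared by their wide fraction, the percent of coding bases under wide calls. Of 4728 genes in the kept regions, 1203 had no wide base in any library, and 3054 had wide bases in at least 2 libraries and were tested with limma. After Benjamini-Hochberg adjustment over these genes, 10 (0.327%) rose and 3 (0.0982%) fell with phenanthroline. At an unadjusted limma p under 0.05 there were 314, with 243 higher and 71 lower. The median gene tested was 2.91 points higher with phenanthroline, and few single genes passed. The called genes were short, with a median length of 459 bp against 1558.5 bp for all genes tested, so that in most of them 1 call set the value. In 10 of the 13 every library of 1 treatment was at 0, so most of the 13 genes had on-off values, and their number does not measure the extent of the change. These 10 met the filter of at least 2 libraries through 1 treatment alone. The SE of limma draws on the spread of all genes tested. For IST3 it was 3.53, with an SD of 0.214 in phenanthroline libraries and 0 in untreated libraries. Adjusted p-values of such genes are given as a ranking, not as support for a single gene. On simulated data the test recovered large shifts but few small ones, so a gene that did not pass was not shown to be unchanged. With the strain label as a replicate block limma called only YOR008C-A, and without the label 4 libraries it called 4 genes, 3 of them among the 13.

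**Figure D5:**
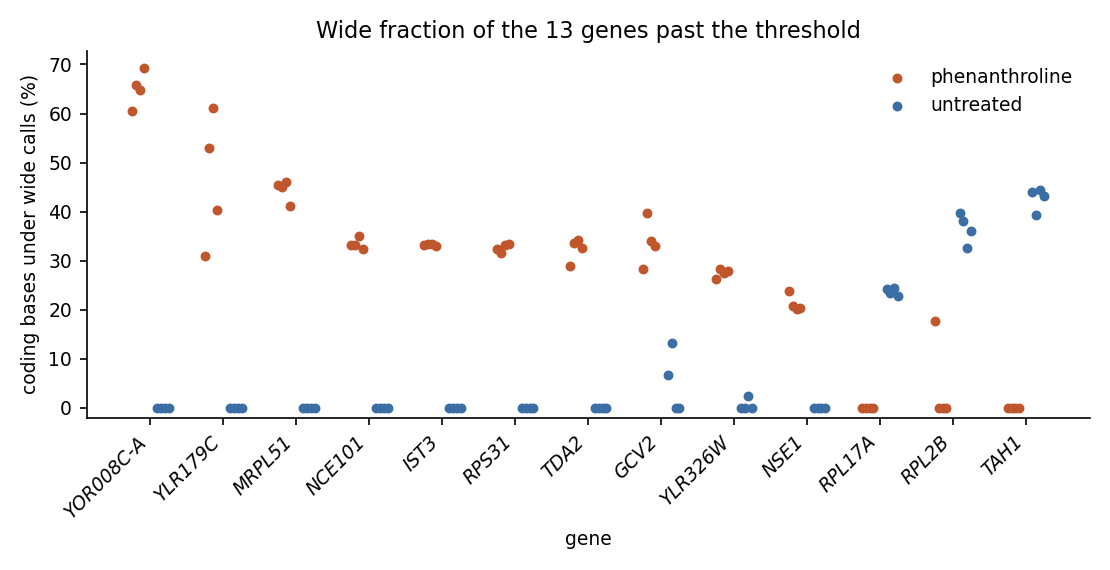
Percent of coding bases under wide calls in each library for the 13 genes that passed the limma threshold. Phenanthroline points are left of untreated points for each gene. In 10 of the 13 genes the 4 libraries of 1 treatment are at 0.

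The strongest rise was in YOR008C-A (XV, 342857 to 343081), a gene of 225 bp. Its wide fraction was 60.4%, 65.8%, 64.9% and 69.3% in phenanthroline libraries and 0 in the 4 untreated libraries (difference 65.1 points, SE 3.82, limma adjusted p = 8.2e-05). A single call centred 170 to 173 bp from the coding start carried this: it spanned 164, 189, 189 and 206 bp with phenanthroline, and the untreated libraries had a single-width call at 158 to 187 bp. The score of that call was 0.52 to 0.58 with phenanthroline and 0.75 to 0.82 without.

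In 3 genes the wide call with phenanthroline lay over the coding start. IST3, a splicing factor bound to the U2 snRNP, had a fraction of 33.1%, 33.3%, 33.3% and 32.9% in phenanthroline libraries and 0 in the 4 untreated libraries (33.2 points, SE 3.53, limma adjusted p = 0.00296). Phenanthroline libraries had calls of 208, 209, 208 and 208 bp there and untreated libraries single-width calls. NCE101, which takes part in secretion of proteins without a signal sequence, had 33.1%, 33.1%, 35.1% and 32.5% with phenanthroline against 0 in each untreated library (limma adjusted p = 0.00296). In TDA2 calls of 200 to 207 bp covered the start in 3 phenanthroline libraries. In the library labelled strain 1 the wide call was at the other end of the gene, and all untreated libraries were at 0 (limma adjusted p = 0.0036). The equal fractions of TDA2 in the 4 libraries, 28.9% to 34.1%, thus came from different places.

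In others it lay within or at the end of the gene. MRPL51, a protein of the mitochondrial large ribosomal subunit, had 45.4%, 44.9%, 46.1% and 41.1% with phenanthroline and 0 in each untreated library (limma adjusted p = 7.6e-04), with the call of the label 4 library at a different position from those of the other 3. RPS31, which encodes ubiquitin fused to a small subunit ribosomal protein, had 32.5%, 31.6%, 33.1% and 33.3% against 0, from calls of 203 to 211 bp near the stop codon (limma adjusted p = 0.00296). YLR326W had 26.3% to 28.4% with phenanthroline and 0, 0, 2.35% and 0 without (limma adjusted p = 0.012). NSE1, a subunit of the Smc5-Smc6 complex, had 23.8%, 20.8%, 20.2% and 20.4% against 0 (limma adjusted p = 0.0468). In NSE1 the call of 204 to 210 bp at 722 to 728 bp from the coding start stood where untreated libraries had a single-width call at 695 to 713 bp.

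YLR179C and GCV2 held more varied calls. YLR179C had 30.9%, 53.0%, 61.2% and 40.3% with phenanthroline and 0 in each untreated library (limma adjusted p = 0.0155), with wide calls of 198 to 321 bp at several positions. GCV2, the P subunit of glycine decarboxylase and at 3105 bp the longest of the 13, had 28.3%, 39.7%, 33.9% and 33.0% with phenanthroline and 6.76%, 13.1%, 0 and 0 without (28.8 points, SE 4.73, limma adjusted p = 0.0419). Its groups did not overlap.

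The 3 genes that fell were TAH1, RPL2B and RPL17A. TAH1, a cofactor of Hsp90, was at 0 in each phenanthroline library and at 44.0%, 39.3%, 44.3% and 43.2% in untreated libraries (limma adjusted p = 7.6e-04). Over its coding start untreated libraries had calls of 206, 196, 214 and 202 bp with scores of 0.49 to 0.57, and phenanthroline libraries a single-width call with scores of 0.77 to 0.91. RPL17A, of the large ribosomal subunit, was at 0 in each phenanthroline library and at 24.2%, 23.3%, 24.5% and 22.8% in untreated libraries (limma adjusted p = 0.024). RPL2B, of the same subunit, was at 17.8%, 0, 0 and 0 in phenanthroline libraries and at 39.7%, 38.0%, 32.5% and 36.0% in untreated libraries (limma adjusted p = 0.039). RPL2B and RPL17A have near-identical copies that can share reads, so their values are uncertain.

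Gene lists are described by counts and medians, since they were chosen with results of these data known. Of 137 ribosomal protein genes, 116 were in the kept regions, 24 had no wide base and 76 were tested. Of these 76, 1 rose (RPS31) and 2 fell (RPL2B and RPL17A), against 0.327% and 0.0982% of all genes tested. A positive difference was found in 31 of the 76, against 64.4% of all genes tested. Their median difference was -3.15 points, against 2.91 points over all genes tested. The mean fraction over the kept genes of this list was 7.26% to 11.4% in phenanthroline libraries and 10.2% to 11.0% in untreated libraries, so the groups overlapped. Values of single genes varied widely between libraries: RPL24A had 73.1%, 0, 0 and 0 with phenanthroline and 71.6%, 72.6%, 0 and 74.4% without.

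Of 22 genes of glycolysis and fermentation, 15 were tested, and 0 passed, with 2 higher and 0 lower at an unadjusted limma p under 0.05. Over all 3054 genes tested, 243 were higher and 71 lower at that p. At the shares called over all genes, 0.327% and 0.0982%, so short a list need hold no called gene. The median difference over the 15 was 8.54 points, with 12 positive, against 64.4% positive over all genes tested. The mean over the 16 kept genes was 17.8% to 23.9% in phenanthroline libraries and 11.9% to 16% in untreated libraries, and these did not overlap. The members with the highest fractions did not carry this difference. CDC19, pyruvate kinase, had 30.3%, 52.9%, 31.3% and 62.1% with phenanthroline and 35.4%, 32.3%, 62.3% and 35.3% without. ADH1, alcohol dehydrogenase, had 0 to 38.7% with phenanthroline and 21.5% to 39.1% without.

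In the other 6 lists, of 4 to 46 genes tested, 0 genes passed, against 0.327% risen and 0.0982% fallen over all genes tested. At an unadjusted limma p under 0.05 there were 0 to 3 higher and 0 to 2 lower genes per list. Over all 3054 genes tested there were 243 higher and 71 lower, so these counts are not read as a result about the lists. Their median differences ran from 0.519 to 8.26 points, against 2.91 points over all genes tested. The 25 chaperone and heat shock genes tested had a median of 2.31 points. HSP12, a membrane-associated stress protein, had 47.3%, 0, 59.4% and 43.0% with phenanthroline and 64.5%, 59.4%, 58.8% and 63.6% without. The 25 pheromone response genes tested had a median of 3.75 points. FUS1, needed for cell fusion in mating, had 45.5%, 40.2%, 44.7% and 32.6% with phenanthroline and 38.6%, 38.4%, 13.8% and 13.6% without. FIG1, a membrane protein of mating cells, had 40.2% to 41.4% with phenanthroline and 22.4% to 42.0% without. The 33 chromatin remodelling genes tested had a median of 3.06 points, the 31 meiosis and sporulation genes 4.30 and the 46 ribosome biogenesis genes 0.519. Of 9 histone genes kept, 4 had no wide base and 4 were tested, with a median of 8.26 points, and their near-identical copies make values such as those of HHT1 (48.4% to 89.3% with phenanthroline, 0 to 87.6% without) uncertain.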

How the data were processed

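The deposited files, 1 per library, list nucleosome calls of nucleR, per the file columns, on sacCer3, per the submitters' processing notes. Neither the aligner nor the read filters or calling settings were found in the labels or files. Calls above 147 bp (end minus start plus 1) were taken as wide, and the remaining calls were exactly 147 bp long. Each call has a start, an end, a class and the authors' score, the mean of a width and a height score (tested on all calls). Coding sequences of 6002 nuclear genes were taken from RefSeq (assembly R64).

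Library measures were compared by exact two-sided permutation over 70 splits of 4 against 4, and within-library differences by exact sign-flip over 8 libraries, with Benjamini-Hochberg adjustment. Per-gene wide fractions went through limma 3.58.1 (R 4.3.3) at a threshold of 0.05. The test was tried on simulated data without on-off values, where it recovered few small shifts. Shared strain labels pair the libraries by design, and deviations of same-label libraries correlated at -0.02 to 0.06 across genes. Between treatments, wide calls lay within 30 bp of a wide call in 19.0% of cases for the same label. For other labels it was 17.4%, and the ranges over pairs overlapped (15.4% to 22.3% and 13.7% to 21.9%). Python 3.11.15, numpy 2.4.6, pandas 2.3.3, scipy 1.17.1 and matplotlib 3.10.9 did the rest. Genes and places were named by a rule (all genes past the threshold with 4 labels moving one way, up to 10 each way; the widest 8, 5 and 5 places; the 2 members of each list with the highest fraction). Members and lists were chosen with earlier results of these data known. Files give no counts, so no counting interval can be given. Alternatives were another width, score minimum, overlap, windows, gene filter and scale, all nuclear positions, a replicate block and leaving out each label.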

Additional observations from a re-analysis of the deposited data

Results flagged for a closer look

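The change with phenanthroline differed between gene bodies and gene ends, and the difference itself was tested. The share of wide calls was 1.43 percentage points higher in gene bodies and 1.44 points lower at gene ends, which makes a difference of 2.87 points (exact permutation p = 0.0286, adjusted p = 0.0429, 4 of 4 labels in the same direction). With gene ends taken as 100 bp the fall at gene ends was not past the threshold.

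In 5 of 71 groups of 4 libraries that were looked at, 1 library stood far from the other 3, and chance gives about 1 in 20. Of deep calls in long genes, 11.8% were wide in the untreated library labelled strain 2, against a group median of 11.4%. The mean height score of wide calls was 0.512 in the phenanthroline library labelled strain 4, against a median of 0.503. The wide fraction of YLR326W was 2.35% in the untreated library labelled strain 3 and 0 in the other untreated libraries, from a call of 329 bp centred beyond the stop codon. That of NSE1 was 23.8% in the phenanthroline library labelled strain 1, where a second wide call reached into the gene end, against a median of 20.6%. That of RPL2B was 17.8% in the phenanthroline library labelled strain 1 and 0 in the other 3.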

How the results depend on the processing

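Differences are phenanthroline minus untreated. The replicate block changes no difference, and its smallest possible exact p over 4 pairs is 0.125, so the values for wide share of calls (1.11 points), number (756.75), mean score (0.0104), gene body (1.43), gene end (-1.44) and elsewhere (0.724) were not past the threshold with it. Leaving out a strain label (3 against 3) cannot give an exact p below 0.1. Across these, share ranged from 1.01 to 1.22 points, number from 691 to 828.7, mean score from 0.00945 to 0.0126, gene body from 1.33 to 1.52, gene end from -1.89 to -1.12 and elsewhere from 0.54 to 0.809. The promoter difference of -0.23 points ranged from -0.415 to 0.125 without a label (positive without label 2), and was 0.013 for calls above 214 bp, a setting chosen after seeing the data. That setting gave -0.0632 points at gene ends.

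With a score of at least 0.4, share (1.36 points), number (738.25), mean score (0.00877), gene body (1.82), gene end (-2.13) and elsewhere (0.624) had adjusted p of 0.0571 to 0.098. With narrower windows, gene body (1.43; adjusted p = 0.0571), gene end (-0.971) and elsewhere (0.0105) were not past it. With all nuclear positions, elsewhere was 0.691 (adjusted p = 0.0762). The cause was not tested. Of the 11 within-library comparisons, 3 (score of wide minus single-width calls, gene body minus promoter and deep minus early) kept direction and call under each alternative run, and the other 8 were run under no alternative. The replicate block was not among the alternatives run for these 3, so no sign-flip test of them took the strain label as its unit.

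With 1 shared bp there were 8850 places, 360 wide in all 8 libraries and 63 in 4 phenanthroline and 0 untreated. With 50% of both shared 24 were wide in all 8, and with a score of at least 0.4 48 were. Above 214 bp there were 1958 places, 0 wide in all 8, 1 in 4 phenanthroline and 0 untreated and 0 in the reverse.

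The gene test called 13 genes (10 higher, 3 lower). With the replicate block it called 1 (1 higher, 0 lower), and without a label 4 to 22 (3 to 18 higher, 1 to 4 lower). As a share of calls 1 gene was lower, on the arcsine scale 17 were higher, and with a score of at least 0.4 8 passed (5 higher). Calls give no read depth, so how coverage limits the joining of calls was not tested.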
